A study of Mus musculus with 2 samples.

Results

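The interferon pathway genes examined here are 60 protein-coding genes of the mouse, chosen by their symbols from the 21938 protein-coding genes that GENCODE release M21 places on chromosomes 1 to 19, X and Y. They were 4 receptor genes (Ifnar1, Ifnar2, Ifngr1 and Ifngr2), 2 sensor genes (Ifih1 and Ddx58), 16 transcription factor genes (9 named Irf and 7 named Stat), and 38 effector genes, which are the Ifit, Gbp and Oas families with Isg15, Isg20, Mx1 and Rsad2. The symbol prefix that picks the Ifit genes also picks 7 Ifitm genes, which belong to a separate membrane protein family and were counted among the effectors. Mx2 is listed in that release as a polymorphic pseudogene and so was not a member.

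DNase-seq was used to map open chromatin: nuclei are treated with the enzyme DNase I and the ends of the DNA it releases are sequenced. The tissue was the left cerebral cortex of male mice of the strain B6CASTF1/J at an age of 2 months, an F1 cross that carries a C57BL/6J and a CAST/EiJ copy of its autosomes. There were 2 libraries in 1 group, numbered biological replicates 1 and 2 and described as separate animals, although both list one donor record for the strain. The labels record no treatment or infection, so the comparisons are between genes and between the 2 libraries, and the design allows no test over samples.

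Interferons are secreted proteins that warn cells of infection. Cytosolic sensors such as MDA5, encoded by Ifih1, and RIG-I, encoded by Ddx58, bind viral RNA and lead through IRF factors to the production of type I interferon, which binds the IFNAR1 and IFNAR2 receptor chains. Type II interferon binds IFNGR1 and IFNGR2, and the kinases on these receptors activate STAT factors, which together with IRF9 or alone bind short sequences named ISRE and GAS in front of effector genes whose products block viral replication. In the brain, neurons and glia carry the receptors, and microglia are known for a strong response to interferon.

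Peaks were taken from the shorter of the peak lists deposited for each replicate, with 63928 peaks in replicate 1 and 76440 in replicate 2 after overlapping intervals were joined. The height of a peak is the authors' own signal value, and over all peaks its median was 0.915 for replicate 1 against 0.689 for replicate 2, at an unknown sequencing depth. Promoters were read as windows reaching 500 bp to either side of every transcription start site (TSS) that the annotation gives a gene, and were called accessible where both replicates had a peak in one. Peaks from whole cortex sum over its cell types, so fewer cells of a type and a lower signal per cell cannot be told apart. Among marker genes of the cell types in cortex, promoters were accessible at 5 of 6 pan-neuronal, 4 of 5 astrocyte and 3 of 5 oligodendrocyte genes. The same held for 2 of 10 microglia, 1 of 6 endothelial, 1 of 5 meningeal and fibroblast and 0 of 6 leukocyte and red cell genes, against 56.2% of all protein-coding genes. Cx3cr1, Csf1r, P2ry12, Itgam and Ptprc had no promoter peak in the shorter list of either replicate. In the lowest of the 3 CpG groups defined below, 11.1% of all genes were accessible. It held 8 microglia, 3 endothelial, 4 meningeal and fibroblast and 5 leukocyte and red cell genes. It also held 1 pan-neuronal, 1 astrocyte and 3 oligodendrocyte genes. The part of CpG content in the marker counts was not tested.

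The promoters of most receptors and factors were accessible in the cortex, whereas those of the sensors and of most effectors were not called in both replicates. Of the 60 members, 23 had a promoter peak in replicate 1 (38.3%, against 61.6% of all protein-coding genes) and 17 in replicate 2 (28.3%, against 57.1%). The 17 had one in both replicates, against 56.2% of all genes. These were 3 of 4 receptors, 0 of 2 sensors, 9 of 16 factors (56.2%, as over all genes) and 5 of 38 effectors (13.2%). Replicate 1 alone had a peak at 6 further members, or 10%, against 5.37% of all genes, and replicate 2 alone at 0, against 0.934%. With replicate 1 alone the effector count was 8 and the sensor count 1, and with replicate 2 alone they were 5 and 0. In the longer lists 28 members had a promoter peak in replicate 1 (46.7%, against 65.8% of all genes) and 26 in replicate 2 (43.3%, against 62%). Both replicates had one there at 23 members (38.3%, against 61%), and 29 members had none in either replicate, which was 48.3% of them against 33.2% of all genes.

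**Figure D1:**
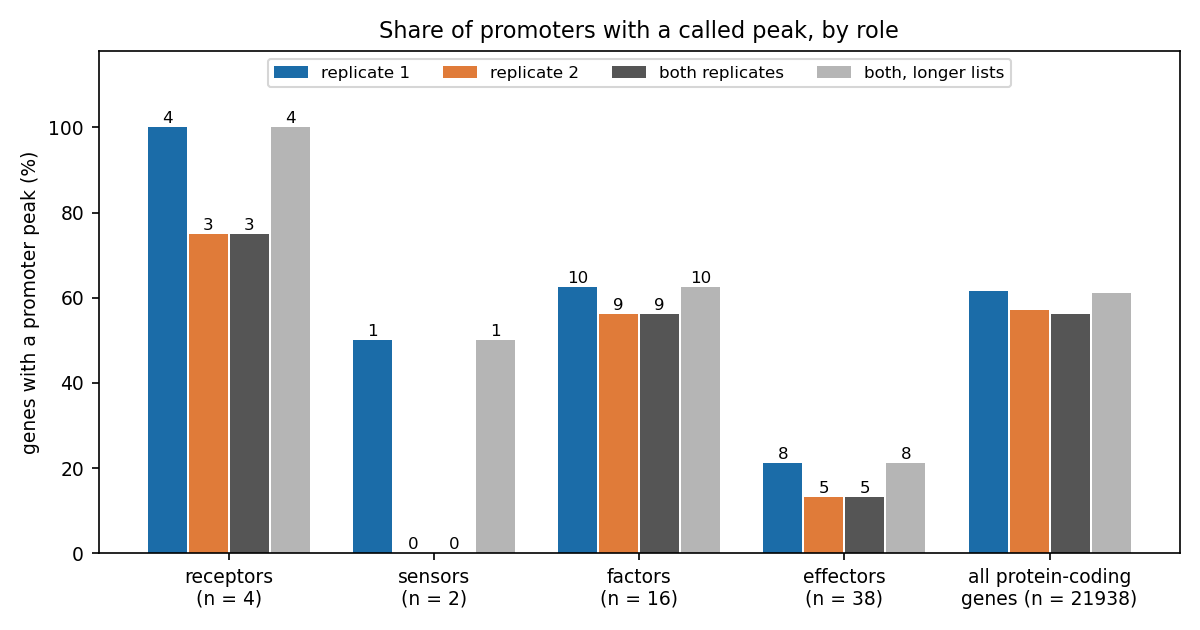
Percentage of genes with a called promoter peak, by role, in replicate 1, in replicate 2, in both, and in both replicates of the longer lists, with the number of genes above each bar. The bars of the factors lie close to those of all 21938 protein-coding genes (56.2% in both replicates for each), the receptors lie higher, and the effectors lie below at 13.2%.

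A few promoter sequences are shown first, namely those of the sensors and that of the factor with the tallest peak. All are from RefSeq on GRCm38.p6, run from 250 bases before the TSS to 49 bases after it, and are written 5′ to 3′ on the strand of the gene. Capitals mark each match to the ISRE core on either strand. The core searched was GAAA, then any 2 bases, then GAAA. The Ifih1 window is chr2:62646206-62646505 on the minus strand, the Ddx58 window chr4:40239776-40240075 on the minus strand, and the Stat3 window chr11:100939491-100939790 on the minus strand.
Ifih1: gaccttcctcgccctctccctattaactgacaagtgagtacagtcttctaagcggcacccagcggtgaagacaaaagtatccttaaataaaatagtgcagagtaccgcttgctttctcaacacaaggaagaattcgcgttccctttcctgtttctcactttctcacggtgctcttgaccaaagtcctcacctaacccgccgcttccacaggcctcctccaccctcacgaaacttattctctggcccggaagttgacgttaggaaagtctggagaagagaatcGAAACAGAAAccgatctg
Ddx58: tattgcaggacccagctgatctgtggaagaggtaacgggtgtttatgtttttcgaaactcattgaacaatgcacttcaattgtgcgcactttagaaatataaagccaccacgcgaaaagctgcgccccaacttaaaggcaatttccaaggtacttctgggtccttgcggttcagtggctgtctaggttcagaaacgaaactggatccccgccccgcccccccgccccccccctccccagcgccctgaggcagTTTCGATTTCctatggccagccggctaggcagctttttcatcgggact
Stat3: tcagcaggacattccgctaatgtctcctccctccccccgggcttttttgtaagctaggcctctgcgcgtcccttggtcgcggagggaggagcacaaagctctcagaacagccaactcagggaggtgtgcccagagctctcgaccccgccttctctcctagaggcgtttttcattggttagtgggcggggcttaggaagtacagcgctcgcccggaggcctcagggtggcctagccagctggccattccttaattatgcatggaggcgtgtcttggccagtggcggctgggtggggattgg
Each sensor promoter held 1 match, starting at +32 from the TSS in Ifih1 and at +2 in Ddx58, where the TSS itself is position 0, and the Stat3 window held none. The Stat3 window overlapped a peak in both replicates, and those of the sensors overlapped none.

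Among the receptors, the tallest promoter peak was that of Ifnar1 (chr16:91485238-91507441, plus strand), which encodes the signalling chain of the type I receptor, with a height of 6.70 in replicate 1 and 4.44 in replicate 2. Ifngr1 (chr10:19591949-19610229), the ligand-binding chain of the type II receptor, followed with 4.49 and 3.38. Ifnar2, the ligand-binding chain of the type I receptor and a neighbour of Ifnar1 on chromosome 16, had 1.77 and 0.918. The order of these 3 genes was the same in both replicates, and Ifnar1 stood above 83.7% of accessible promoters in replicate 1 and 84.5% in replicate 2, whereas Ifnar2 stood above 19.4% and 16.8%. Ifngr2, the partner chain of Ifngr1, reached 0.984 in replicate 1 but had no peak in the shorter list of replicate 2, while the longer list of replicate 2 held one of 0.425. The lowest false discovery rate (FDR) of a base in the Ifngr2 promoter was 1.1e-10 in replicate 1 and 0.00082 in replicate 2, so it was the only receptor whose call differed between the animals.

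Neither sensor was called in both replicates. Ifih1 (chr2:62595798-62646255, minus strand) showed a replicate 1 peak of 0.656, centred 111 bp downstream of its main TSS, and none in either list of replicate 2, where no base of its promoter reached an FDR under 0.05. Ddx58 (chr4:40203773-40239828, minus strand) had none in the shorter lists and heights of 0.319 and 0.216 in the longer lists, with lowest FDR values of 0.022 and 0.0148. Both sensor genes had values below the median height of 3.73 in replicate 1 and 2.11 in replicate 2 over all accessible promoters.

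Accessible promoters in the Stat family included those of Stat3, Stat2 and Stat5a. Stat3 (chr11:100885098-100939540, minus strand), a factor activated by cytokines of the IL-6 family and by growth factors, had the tallest peak of all members, with a height of 9.47 in replicate 1 and 5.94 in replicate 2. It stood above 97.1% of accessible promoters in replicate 1 and 93.8% in replicate 2, and 2 further shared regions lay at other start sites of the gene. Stat2 (chr10:128270559-128292849), a partner of IRF9 in the complex that binds ISRE sequences, had 5.63 and 4.40. Stat5a had 0.881 and 0.608, close to the low end, and its neighbour Stat5b had 1.41 in replicate 1 and no peak in the shorter list of replicate 2, with 0.506 in the longer one. Stat4 and Stat6, which are best known from the signalling of IL-12 and of IL-4 in lymphocytes, had no promoter peak in any list and no promoter base with an FDR under 0.05.

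Of the 9 Irf genes, 5 had accessible promoters (55.6%, close to the 56.2% of all protein-coding genes). Irf3 (chr7:44997648-45002848), the constitutive factor that the RNA sensors activate first, had a height of 5.04 in replicate 1 and 3.23 in replicate 2, at a peak that also covered a start site of the neighbouring gene Bcl2l12, so the signal cannot be given to one of them. Irf9 (chr14:55603571-55610030), the DNA-binding part of the complex with STAT2, had 2.84 and 1.42. Irf1 (chr11:53770014-53778374), an early target of interferon gamma, had 2.66 and 1.29. Irf2 (chr8:46739732-46847458), which can oppose IRF1, had 2.05 and 1.21, at a peak that also covered the start of the noncoding gene Gm16675. Those 3 genes were close to each other in both replicates, and no order among them is read from 2 libraries. Irf8 (chr8:120736358-120756694), a factor of myeloid cells including microglia, had 2.76 in replicate 1 and 0.790 in replicate 2. On the log2 scale its ratio of replicate 2 over replicate 1 was -1.80, the lowest among the accessible members, whose median was -0.64, and the median over all accessible promoters was -0.77. The microglia marker Aif1 was also lower in replicate 2 (0.993 and 0.763), and its part in the value of Irf8 was not tested.

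The Irf genes without a peak in the shorter lists included Irf4, Irf5 and Irf7. Irf4, a factor of lymphocytes, had a peak of 0.389 in the longer list of replicate 1 alone. Irf7, the factor that amplifies the type I response once induced, had one of 0.365 in the longer list of replicate 2 alone. Irf5 had none in any list. Stat2 and Irf9, which act in 1 complex at ISRE sequences, were accessible in both animals, and Irf7 was not.

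**Figure D2:**
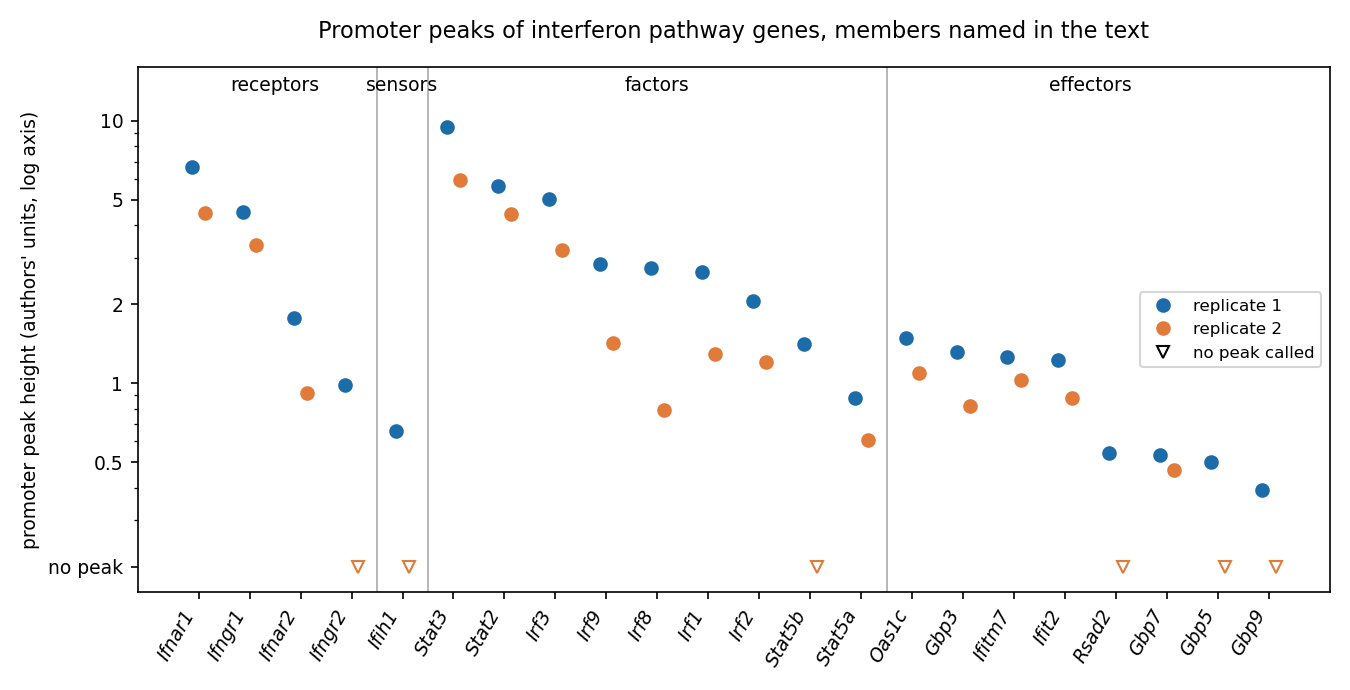
Height of the tallest promoter peak in each replicate, in the authors' units on a log axis, for the members named with a peak in 1 or both replicates, ordered by role and height, where open triangles mark a replicate with no called peak. Stat3 is the tallest at 9.47 and 5.94, and no effector exceeds 1.49.

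The effectors with an accessible promoter were Oas1c, Gbp3, Ifitm7, Ifit2 and Gbp7, which is 1 gene of the Oas family, 1 of the Ifit family, 1 Ifitm gene and 2 of the Gbp family. Their median height was 1.26 in replicate 1 and 0.878 in replicate 2, and the tallest of them stood above only 22.6% of accessible promoters in replicate 2. Oas1c (chr5:120800194-120812514, minus strand), a member of the 2′-5′-oligoadenylate synthetase family, whose active members sense double-stranded RNA, had 1.49 and 1.09. That peak also covered the annotated start of the pseudogene Oas1b, so the peak cannot be given to one of them. Gbp3 (chr3:142560026-142573209), a guanylate-binding protein, had 1.32 and 0.817 at a peak centred 768 bp and 758 bp from its main TSS. In replicate 1 the edge of that peak lay 330 bp from the nearest annotated start site of the gene. Ifitm7 (chr16:13981699-13986888, minus strand) had 1.26 and 1.03 at a peak shared with the start of the coding gene 2900011O08Rik. Ifit2 (chr19:34550694-34576419), which binds viral and cellular RNA, had 1.23 and 0.878. Gbp7 (chr3:142530342-142550149) had the lowest heights of the accessible members, 0.531 and 0.466.

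Rsad2, Gbp5 and Gbp9 had a promoter peak in replicate 1 alone, with heights of 0.544, 0.501 and 0.393. Rsad2 encodes viperin, an enzyme that makes a chain-terminating nucleotide, and its peak was about as low as that of Gbp7. Gbp9 was called at a start site far from its main one, with the peak centred 29199 bp downstream, and 58.3% of the 25-base words in its main promoter window occur more than once in the genome. The longer lists added a replicate 2 peak at Gbp5 (0.358) and Gbp9 (0.182), and a peak in both replicates at Ifitm2 (0.367 and 0.446). They added one in 1 replicate at Gbp2 (0.194 in replicate 1), Ifitm10 (0.678 in replicate 1), Mx1 (0.243 in replicate 2) and Oas2 (0.513 in replicate 2). Mx1 encodes a GTPase that blocks influenza virus.

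The remaining 25 effectors had no promoter peak in any list. They were Isg15 and Isg20; Ifit1, Ifit1bl1, Ifit1bl2, Ifit3 and Ifit3b; Ifitm1, Ifitm3, Ifitm5 and Ifitm6; Gbp2b, Gbp4, Gbp6, Gbp8 and Gbp10; and Oas1a, Oas1d, Oas1e, Oas1f, Oas1g, Oas1h, Oas3, Oasl1 and Oasl2. Of the 38 effectors, 24 (63.2%) had no promoter base with an FDR under 0.05 in either replicate, against 32.2% of all protein-coding genes. A base with an FDR under 0.05 was present in both replicates at 24 of the 60 members (40%, against 61.9% of all genes), and one with an FDR under 0.001 at 19 (31.7%, against 57.1%). Isg15, the ubiquitin-like modifier that is among the strongest interferon-induced genes in most cells, had 35 bases with an FDR under 0.05 in replicate 2, the lowest at 0.0331, and 0 in replicate 1.

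Footprints are short protected stretches within open chromatin, listed by the authors for each replicate as positions without a score. A promoter footprint was listed in both replicates for 20 of 60 members (33.3%), against 58.5% of all protein-coding genes. These were 4 of 4 receptors, 10 of 16 factors, 6 of 38 effectors and 0 of 2 sensors. Stat3 held 14 and 15 footprints in replicates 1 and 2, Stat2 held 14 and 8, and Irf8 held 7 and 3. Ifngr2 and Stat5b, both called in replicate 1 alone, held 13 and 12 footprints there and 2 each in replicate 2.

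The effector promoters were poor in CpG. These dinucleotides are depleted in most of the mouse genome but kept in many promoters, and their observed over expected ratio was taken over 500 bp on both sides of the main TSS. The median ratio was 0.184 over the effectors, 0.673 over the factors, 0.674 over the receptors and 0.526 over the sensors, against 0.571 over all protein-coding genes and 0.738 over the accessible ones. When all genes were cut by this ratio into 3 groups of equal size, at 0.318 and 0.719, the share of accessible promoters was 11.1% in the lowest group, 66.1% in the middle and 91.3% in the highest. The lowest group held 30 effectors, of which 1 (Gbp3) was accessible, and the middle group the other 8, of which 4 were, and no effector was in the highest. Peaks were called at any TSS of a gene, whereas the ratio was taken at the main TSS alone. The Gbp3 peak, centred 768 bp and 758 bp from its main TSS, lay outside the stretch whose ratio was taken. The factors fell 3, 8 and 5 into the 3 groups from lowest to highest, with 2, 4 and 3 accessible. Irf9 and Stat5a were the factors of the lowest group with an accessible promoter, with ratios of 0.267 and 0.213. In the highest group, Irf5, Stat5b and Ifngr2 were not accessible in both replicates, with ratios of 0.786, 0.863 and 0.769.

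**Figure D3:**
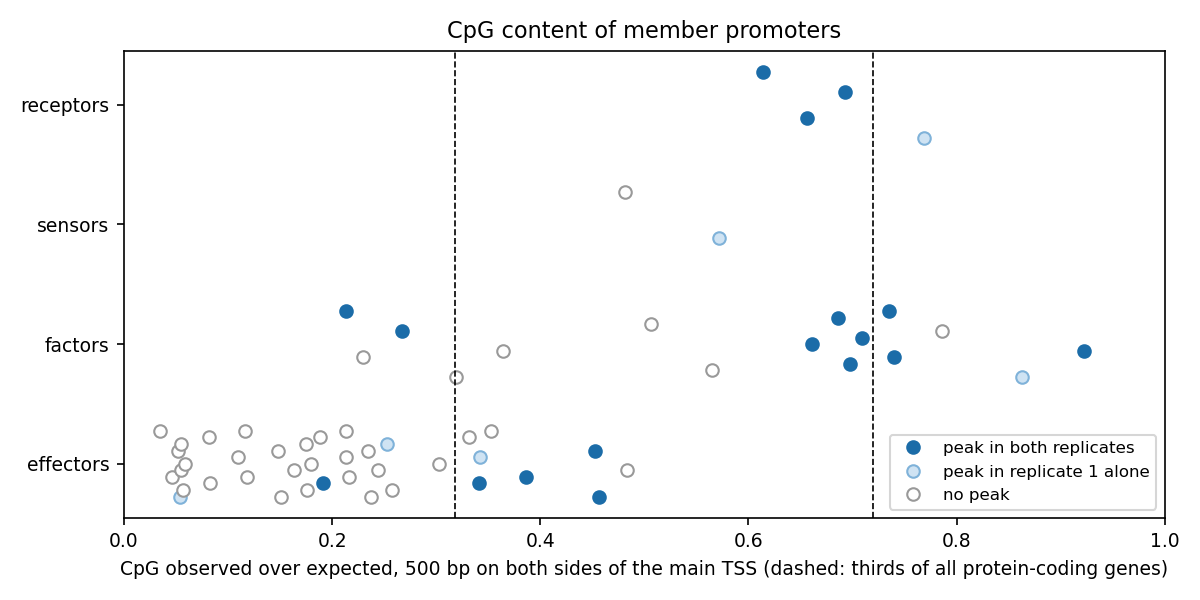
CpG observed over expected ratio of each member's promoter, by role, with filled points for a peak in both replicates, pale points for replicate 1 alone, open points for no peak, and dashed lines at 0.318 and 0.719 between the 3 groups of all protein-coding genes. The effectors crowd below 0.318, where 1 of 30 is filled, and the vertical offset within a role carries no value. Peaks are those at any TSS of a gene, and the ratio is that at its main TSS.

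Many effectors are recent tandem copies of each other, and reads from near-identical sequence can be lost where the counting keeps uniquely placed reads. No label or file note used here says how such reads, or reads from the CAST/EiJ copy of the genome, were treated. The copy number and the motifs were read from the reference genome alone, not from the CAST/EiJ copy. In 22 effectors, 10% or more of the 25-base words of the promoter window occurred more than once in the genome, and 0 of these 22 were accessible, against 25.5% of all genes with such promoters. Among the other 16 effectors 5 were accessible (31.2%), against 64% of all genes with less repeated promoters. The share was 77.2% in Ifit3, 78.1% in Ifit3b and 63.2% in Gbp4. It was 27.7% in Oas1h, 35% in Oas1g, 43.8% in Oas1a and 37.9% in Oas1d, against 4.91% in Oas1c. A missing peak at the genes with high shares is uncertain, and the part of copy number in the low effector count was not tested. The share was 0 in Ifit1, Ifit1bl2, Isg20, Oasl1 and Oas2, which had no peak in the shorter lists. It was also 0 in Ifit2 and Gbp7, which were accessible, and in Gbp5, which had a peak in replicate 1 alone.

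The ISRE core was common in front of the effectors whether or not a peak was called. In the 300 bases around the main GENCODE TSS, 250 upstream and the rest downstream, it was found on either strand in 22 of 60 members (36.7%), against 3.62% of all protein-coding genes. It was present in 19 of 38 effectors, 2 of 2 sensors, 1 of 16 factors (Irf2) and 0 of 4 receptors. Of the accessible effectors 3 of 5 held it, and of the others 16 of 33. Over all protein-coding genes, 44.5% of those with the motif were accessible, against 56.6% of those without it. The GAS core TTCNNNGAA, to which STAT dimers bind, was found in 11 members (18.3%), against 8.29% of all genes, with 6 among the effectors, 3 among the factors and 2 among the receptors. A match to these letters is a description of the sequence and not a site.

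Other motifs were searched in the same window on both strands. The GC box GGGCGG, common in CpG-rich promoters, was found in 25 members (41.7%), against 45.3% of all genes, with 4 of 4 receptors, 10 of 16 factors, 1 of 2 sensors and 10 of 38 effectors. The TATA sequence TATAAA was found in 9 members (15%), against 12.5%, among them Irf4, Irf7, Irf8, Ddx58 and Rsad2. An NF-kB motif of GGGA, 2 free bases and TTCC was found in 3 members (5%), against 1.56%, and the ETS motif in 3 (5%), against 5.01%.

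The RefSeq table gave 300-base windows for 49 of the 60 members, placed at RefSeq's own TSS, which can differ from the GENCODE TSS used for the counts, so that a match can be present in one window and absent from the other. It gave no window for Gbp4, Gbp6, Gbp8, Gbp9, Gbp10, Mx1, Oas1d, Oas1e and Oas2, among others. The following show the effector with the tallest peak, the effector that holds an ISRE core without any peak at the lowest copy number (the first by alphabet among ties), and Isg15, which was chosen after its values were seen because it held the most matches. The Oas1c window is chr5:120812465-120812764 on the minus strand, the Ifit1 window chr19:34640639-34640938 on the plus strand, and the Isg15 window chr4:156200769-156201068 on the minus strand. Capitals mark the ISRE core on either strand, and matches that overlap run together.
Oas1c: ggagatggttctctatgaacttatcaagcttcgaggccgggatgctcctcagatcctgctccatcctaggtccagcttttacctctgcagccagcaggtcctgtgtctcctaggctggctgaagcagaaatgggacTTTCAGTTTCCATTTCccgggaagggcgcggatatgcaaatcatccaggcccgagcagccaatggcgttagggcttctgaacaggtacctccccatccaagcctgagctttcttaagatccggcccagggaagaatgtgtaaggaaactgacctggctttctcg
Ifit1: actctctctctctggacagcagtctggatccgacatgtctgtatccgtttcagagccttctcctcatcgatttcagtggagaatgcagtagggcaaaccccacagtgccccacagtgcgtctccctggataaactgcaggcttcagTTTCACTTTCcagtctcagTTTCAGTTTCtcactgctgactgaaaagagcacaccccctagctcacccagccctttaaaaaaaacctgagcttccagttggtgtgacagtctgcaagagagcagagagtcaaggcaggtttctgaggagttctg
Isg15: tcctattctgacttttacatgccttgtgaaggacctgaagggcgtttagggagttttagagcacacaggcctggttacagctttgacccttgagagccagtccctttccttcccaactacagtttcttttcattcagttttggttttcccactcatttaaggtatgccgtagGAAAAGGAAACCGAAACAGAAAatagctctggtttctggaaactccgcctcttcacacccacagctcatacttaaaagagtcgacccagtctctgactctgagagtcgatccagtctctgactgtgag
Oas1c held 2 overlapping matches, which start at -114 and -108 from the TSS. Both lay inside the peak and inside footprints in replicate 1 and in replicate 2, and Oas1c was the only member with a match in a footprint in both. The same peak covered the divergent start of the pseudogene Oas1b, so these matches and footprints cannot be given to Oas1c alone. Ifit1 held 2 matches, at -104 and -85, and Isg15 held 3 that overlap, at -78, -72 and -66, and no peak or footprint covered any of them. The Ifit1 window also covers the divergent start of Ifit1bl2, so both genes hold the same pair.

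In the other accessible members with a match the position relative to the peak varied. In Gbp7 the match at -53 lay inside the peak of both replicates and inside a footprint of replicate 2 alone, and the match at -241 in Irf2 did the same. In Stat2, whose GENCODE window held no match, the RefSeq window held one at -222, which lay outside the peak in both replicates. In Gbp3 the matches at -45 and -39 lay at its main TSS, away from the called peak. In Rsad2 the match at -120 lay outside the peak of replicate 1, and in Ifih1 the match at +32 lay outside the peak of replicate 1 as well.

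**Figure D4:**
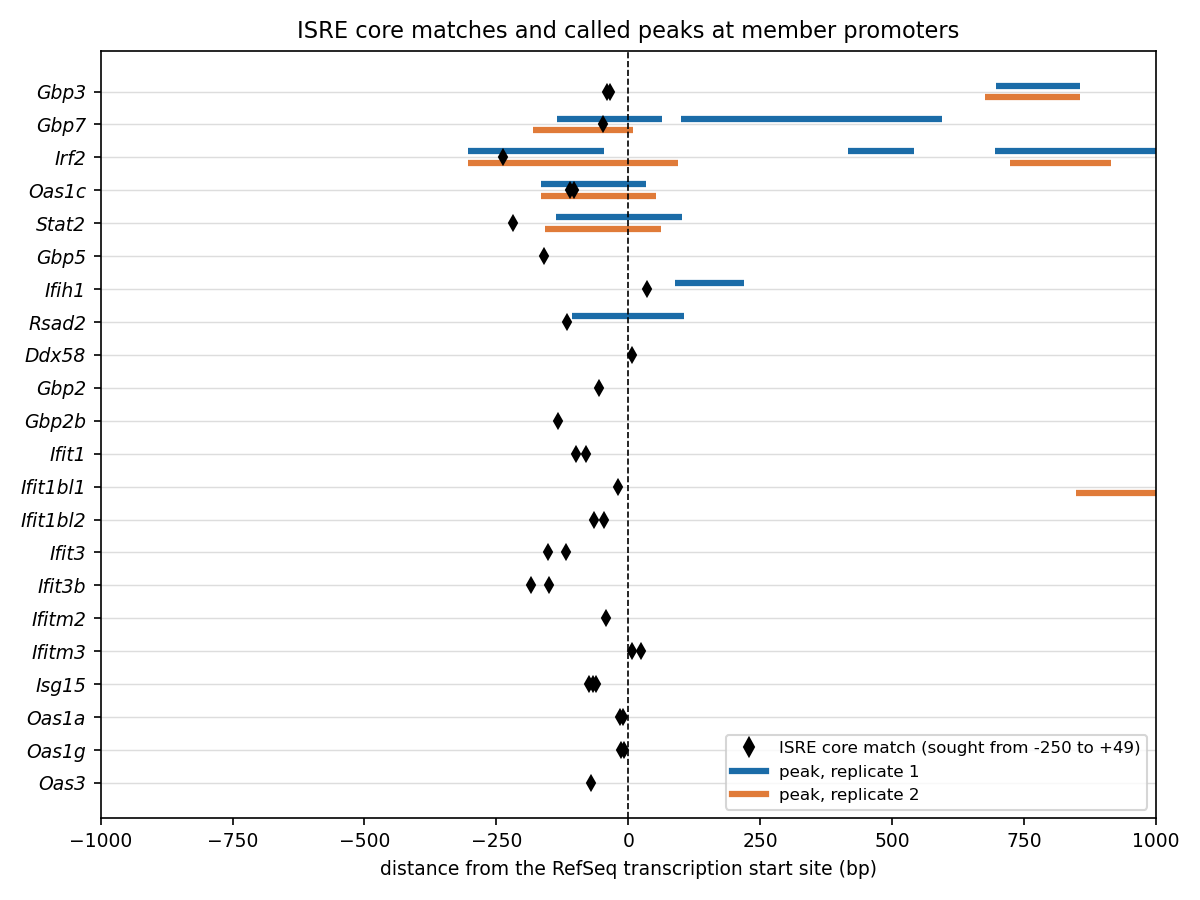
Middle of each ISRE core match (diamonds) and extent of called peaks in replicates 1 and 2 (bars) around the RefSeq TSS, in bp, for the members with a match in the 300-base window. Matches fall inside peaks of both replicates in Gbp7, Irf2 and Oas1c, and most other rows hold a match and no peak.

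The loci of the members, taken as the gene with 20 kb of flank at each end, held 95 distinct regions that were open in both replicates. At least 1 such region was found at 42 of 60 members (70%), against 78.6% of all protein-coding genes. Of the 95 regions, 21 lay at promoters of members and 23 at promoters of other coding genes, such as Agrn beside Isg15 and Aen beside Isg20. Another 32 were distal, over 2000 bp from every annotated TSS, and the median of the geometric mean height over both replicates was 0.732 in these and 0.856 in all 23895 shared distal regions. A distal region was present in the locus of 25 of 60 members (41.7%), against 46.7% of all genes, with 3 of 4 receptors, 1 of 2 sensors, 6 of 16 factors and 15 of 38 effectors. Neighbouring loci overlap, so 1 region can count for 2 or 3 members.

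The distal regions are ordered here by the geometric mean of their heights in both replicates. The first, at chr13:30786281-30786620 with heights of 1.53 in replicate 1 and 2.00 in replicate 2, lay 37 kb from the start of Irf4 in an exon of the noncoding gene Gm29675, although the promoter of Irf4 had no peak in the shorter lists. The region chr11:100957341-100957520, with 2.51 and 1.18, lay in the locus of Stat3 but within an untranslated part of its neighbour Cavin1. An intron of Ifitm10 held chr7:142334341-142334560, with 2.31 and 1.09. The region chr5:120714401-120714600, with 2.21 and 0.891, lay in the locus of Oas2 and nearest to Dtx1, 2.47 kb away. The region chr2:62654621-62654820, with 1.56 and 1.09, lay 8.37 kb upstream of Ifih1. Of these 5 regions, only the one beside Irf4 was taller in replicate 2.

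Members without an accessible promoter could still have several distal regions. Ifit1 had 4, 3 of them beyond its 3′ end and 1 inside Ifit1bl2, and Stat4 and Ifitm10 had 3 each. The Stat4 regions all lay in its introns, between 3.84 kb and 9.42 kb from its nearest start site, with heights from 0.453 to 1.59 in replicate 1 and from 0.527 to 0.696 in replicate 2. At 3 members (5%) there were 3 or more, against 11.5% of all protein-coding genes. Stat6 had 8 shared regions in its locus and 0 distal ones, and 3 of the 8 lay at starts of Nab2 or Nemp1. Ifih1, Irf2, Ifnar2, Gbp5 and Mx1 had 2 each.

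Of the 32 distal regions, 1 held the ISRE core and 3 the GAS core. The region with the ISRE core, chr2:62628441-62628660 in an intron of Ifih1, is shown because it held both motifs within a gene whose promoter was not called in both replicates. It had heights of 0.583 in replicate 1 and 1.01 in replicate 2. The sequence is that of the plus strand of GRCm38.p6, and the capitals mark the GAS core first and the ISRE core after it.
Ifih1 intron: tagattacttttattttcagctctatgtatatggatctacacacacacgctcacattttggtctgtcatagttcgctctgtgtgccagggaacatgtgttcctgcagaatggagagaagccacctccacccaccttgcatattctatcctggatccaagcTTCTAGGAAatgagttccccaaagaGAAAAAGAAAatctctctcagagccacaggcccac

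The effector families lie in tandem clusters, and all but the Gbp cluster of chromosome 5 held regions open in both replicates. The Ifit cluster of 6 genes on chromosome 19 (34550694 to 34650009) held 2 shared regions, or 20.1 per Mb, against 16.4 per Mb over the genome, and 1 of these was the promoter of Ifit2. The cluster from Oas2 to Oas1d on chromosome 5 (120730333 to 120921652) held 4 (20.9 per Mb), and the tallest was the promoter of Oas1c. The Gbp genes of chromosome 3 (142493978 to 142638008) had 2 (13.9 per Mb), both at promoters, whereas the Gbp genes of chromosome 5 (105014150 to 105293698) had 0 over 280 kb. In that chromosome 5 cluster the promoters of Gbp4, Gbp6, Gbp8, Gbp9 and Gbp10 had between 49.9% and 63.2% of their 25-base words in several copies. The 5 Ifitm genes grouped on chromosome 7 had 2 shared regions (29 per Mb) and no accessible promoter, and Oasl1 with Oasl2 had 1 (24.4 per Mb). Each of these rates rests on few regions, and the genome rate also counts sequence far from genes. Per locus with its flanks, the mean was 1.17 shared regions in the Ifit family, 1.27 in Oas, 0.7 in Gbp and 1.71 in Ifitm. It was 2.8 over all protein-coding genes.

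**Figure D5:**
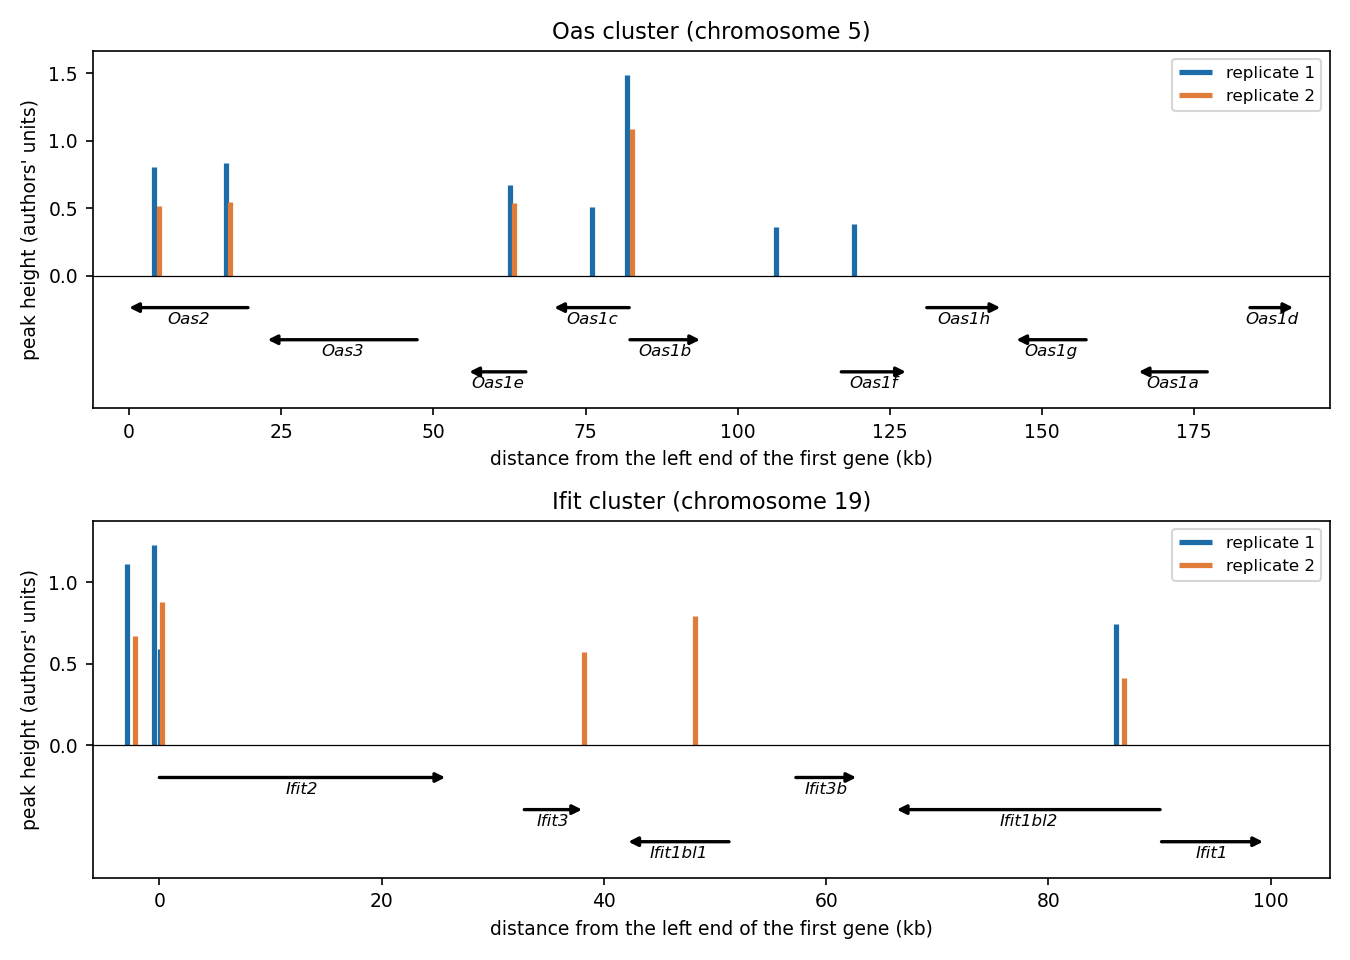
Called peaks of both replicates, drawn at their centres with their heights in the authors' units, along the Oas cluster of chromosome 5 and the Ifit cluster of chromosome 19, with arrows for the genes in the direction of transcription. In the Oas cluster the peak at Oas1c reaches 1.49 and 1.09 and Oas1h, Oas1g, Oas1a and Oas1d have none, and in the Ifit cluster the promoter peak is that of Ifit2.

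Other genes of the pathway, which are not members, were read in the same way, beside an accessible share of 56.2% over all protein-coding genes. Of 8 interferon genes, including Ifnb1 and Ifng, 0 had a promoter peak in any list. All 5 kinases had an accessible promoter, namely Jak1 (5.85 in replicate 1 and 3.63 in replicate 2), Jak2, Tyk2, Tbk1 and Ikbke. Of 6 inhibitors 5 were accessible, with Socs1, Socs3, Usp18, Ptpn2 and Pias1 called and Ptpn6 not. Of 12 further sensors and adaptors 5 were accessible: Mavs, which carries the signal of both RNA sensors, with 4.08 and 2.44, and Myd88, Ticam1, Trim25 and Tlr3. Dhx58, an RNA sensor of the same family as Ifih1 and Ddx58, had no promoter peak in any list.

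Of 27 interferon-induced genes that are not members, 18 had an accessible promoter, beside 5 of 38 effectors and 56.2% of all protein-coding genes. Some of them also act in unstimulated cells, such as B2m, the light chain of MHC class I (3.13 and 2.46), Adar, an RNA editing enzyme (3.82 and 2.28), and Psmb9 and Tap1, which share 1 bidirectional promoter peak (5.51 and 2.71). Others are known mainly as induced genes and had low peaks, among them Igtp (0.635 and 0.520), Xaf1 (0.501 and 0.331), Cxcl10 (0.462 and 0.479) and Cmpk2 (0.889 and 0.587), the neighbour of Rsad2. The median CpG ratio of the 27 genes was 0.406. Of the 11 in the lowest CpG group 7 were accessible, against 1 of 30 effectors and 11.1% of all genes. Among the 10 effectors of that group with less repeated promoters 1 was accessible. The share of repeated words was not compared for the 27 genes. The median height of the 18 accessible genes was 0.922 in replicate 1 and 0.696 in replicate 2, below that of the accessible effectors. No test was made between these lists.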

How the data were processed

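DNase-seq libraries of left cerebral cortex from 2 mice were read from the deposited files of each replicate, which were a longer and a shorter peak list, a footprint list and an FDR track, on mm10 per the file headers and notes. The height in column 7 of the deposited peak lists is the authors' signal value, which the notes trace to that replicate's own alignment. How it was scaled, and with which aligner and callers, is not stated in the labels or notes used here. The deposited FDR track lists the false discovery rate, a q-value, for bases where it is under 0.05. The deposited footprint lists carried 1 constant score and were used as positions. The files give no read counts, so depth is unknown and no interval is given. The deposited notes do not tell the 2 peak lists apart, and the shorter one was used in the text unless the longer is named.

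Overlapping peaks were joined and given the highest height. Shared regions join peaks of replicates 1 and 2 that have 1 bp or more in common. Genes came from GENCODE M21, sequence from GRCm38.p6 and printed promoters from RefSeq. The main TSS was that of the principal APPRIS transcript. Motifs were sought on both strands, and 25-base words of the 500 bp on both sides of the main TSS were counted over chromosomes 1 to 19, X and Y. Scripts used Python 3.11.15 and numpy 2.4.6 and were tested on simulated peaks. With 1 group of 2 libraries no test over samples was made. The members and gene lists were chosen with earlier results of these data known. Members with a promoter peak in 1 or both replicates, the 5 tallest distal regions and the members with most of them are named with values, and the other members by family. Other peak lists, windows, locus limits and overlaps were tried as alternatives. A few single genes are not reported here, and the counts include them.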

Additional observations from a re-analysis of the deposited data

How the results depend on the processing

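The receptor, factor and overall counts of accessible promoters stayed within 1.5 times their values under every alternative tried, with 15 to 23 of 60 members called. The effector count rose from 5 to 8 of 38 with the longer peak lists (61% of all genes) and to 8 with windows of 2000 bp on both sides (59.8% of all genes), and leaving out 1 replicate gave 5 (without replicate 1) to 8 (without replicate 2). The sensor count rose from 0 to 1 of 2 with the longer lists, and leaving out 1 replicate gave 0 to 1. All 17 accessible members remained with the longer lists, which added Ddx58, Gbp5, Gbp9, Ifitm2, Ifngr2 and Stat5b. The windows of 2000 bp kept all 17 and added Ifitm10, Ifitm3, Oas2 and Stat6, which were not called with windows of 500 bp. Gbp7 and Stat5a were lost when peaks under the median height of their list were dropped, and Gbp3 with windows of 250 bp on both sides. The 32 distal regions in member loci became 8 above that median height, 18 with 5 kb on both sides of the gene and 52 with 50 kb, and 44 to 53 in 1 replicate alone. Restricted to the 16 effectors with less repeated promoters, an alternative chosen after seeing the data, 5 were accessible. ISRE matches were found in 33 members, against 25% of all genes, when 500 bp on both sides of any TSS were searched. No paired analysis was possible because there is a single group. Peaks depend on depth, which is unknown, so a promoter without a peak is one not detected in these libraries. The cause of the changes was not tested beyond what each alternative states.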
